A study of Mus musculus with 15 samples.

Results

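The comparison was of UV2 tumors from mice given anti-PD-1 with UV2 tumors from mice given isotype control antibody. It used 6 of the 15 libraries in the series, 3 for each antibody, chosen by their labelled line and treatment, and ran across all genes. UV2 is the D3UV2 mouse melanoma line, which the series sets against its parental line, D4M.3A.3, as a tumor with added putative neoantigens made by ultraviolet B light. For both groups 1000000 cells in PBS were placed in each flank of female C57BL/6 mice aged 8 weeks. The antibody, isotype control or anti-PD-1, was given on days 8, 10 and 12, the labels place the treated grafts on the left flank, and the tumor was taken on day 13. Total RNA of the whole tumor was sequenced, so tumor cells, leukocytes and stroma were read together. The mice differed in labelled treatment and shared strain, sex, age and tumor line. Parental tumors under isotype antibody or anti-PD-1, 3 libraries each and handled alike, served as the comparison line. The fit also took in 3 parental libraries labelled triple therapy (imiquimod and ablative fractional photothermolysis with an antibody that the labels name differently in different places), for the shared estimate of spread only. Whether libraries of 1 group stand for different mice is not stated in the labels, so p-values measure only the spread between these libraries, which may be technical.

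PD-1 is a receptor on activated T cells that damps signalling from the T cell receptor when it binds PD-L1 or PD-L2. Antibodies that block it are used in melanoma to release T cells that already recognise the tumor, whose interferon gamma induces antigen presentation and chemokines in the cells around them. Cholesterol synthesis runs from acetyl-CoA through mevalonate and squalene to cholesterol, and its enzymes are transcribed together by SREBP2, which is held inactive when sterols are plentiful.

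The cell type labels were checked first. T cell and macrophage markers were detected in all 6 libraries. Among melanocyte markers, Mitf measured 5.69, 5.28 and 9.44 TPM in isotype replicates 1, 2 and 3 and 11.01, 8.83 and 6.98 TPM in anti-PD-1 replicates 1, 2 and 3, an order kept for all sets of values below. Sox10, a defining regulator of the lineage, did not pass 0.18 TPM in any of the 6, and the pigment antigen gene Mlana was at 0 in 4 of them. TPM is a level corrected for transcript length and scaled to a sum of 1000000 in each library. Isotype replicate 1 stood apart in its T cell transcripts, though not in all leukocyte transcripts. Summed neutrophil markers were 184, 316 and 130 TPM in the isotype libraries, with replicate 3 lowest. The summed level of 20 T cell receptor and coreceptor genes was 235, 594 and 693 TPM in the isotype libraries and 1022, 863 and 873 TPM in the anti-PD-1 libraries. Medians of leukocyte gene lists, and fold changes of leukocyte genes where printed, are therefore given with and without that library. Thy1, in this list, is also made by fibroblasts, and without it the sums were 115, 467 and 449.6 TPM under isotype against 732, 517 and 622 TPM. Fewer cells of a type and less RNA per cell cannot be told apart in such bulk samples.

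Of 13592 genes tested, 2 differed between the antibodies at a Benjamini-Hochberg adjusted p under 0.05 (limma), 0.0147% of those tested. Both encode enzymes of cholesterol synthesis, Idi1 and Sqle, and both fell under anti-PD-1. None rose, and 377 genes had an unadjusted p under 0.05 with a higher value under anti-PD-1 (2.77%), against 868 with a lower value (6.39%), 9.16% together. In 775 genes (5.70%) every treated library lay above every isotype library, and in 989 (7.28%) every treated library lay below. Log2 fold changes, taken on log2(TPM + 1), were positive for 5121 genes (37.7%) and negative for 8471 (62.3%), with a median of -0.11. Median-of-ratios scaling moved that median to 0.01, so list medians are read against the median of all genes. Both calls were lost when isotype replicate 1 or 2 or any 1 anti-PD-1 library was left out, when the fit used only these 6 libraries (adjusted p = 0.563), under quantile normalization, or without the trended and robust variance. Idi1 alone was lost under median-of-ratios scaling (adjusted p = 0.141), and Sqle alone without isotype replicate 3 (adjusted p = 0.0679). Direct 3 against 3 permutation cannot give a p below 0.10, so no single-gene exact test could pass.

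Idi1 encodes isopentenyl-diphosphate isomerase, which makes the building block that is chained into sterols (chr13:8885501-8892451, plus strand, GRCm38). Its levels were 79.5, 61.3 and 52.9 TPM under isotype and 17.1, 20.4 and 18.5 TPM under anti-PD-1. All treated libraries lay far below all isotype libraries, with means of 64.5 ± 13.6 and 18.7 ± 1.65 TPM (SD, n = 3 each). The log2 fold change was -1.72 (SE 0.23, adjusted p = 0.0336), 3.30-fold lower on the log2(TPM + 1) scale. Sqle encodes squalene epoxidase, the first oxygen-dependent step of the pathway (chr15:59315077-59331192, plus strand, GRCm38). It measured 81.2, 50.9 and 59.8 TPM under isotype and 21.03, 23.3 and 16.3 TPM under anti-PD-1, again without overlap. Its log2 fold change was -1.60 (SE 0.21, adjusted p = 0.0336), 3.04-fold lower.

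**Figure D1:**
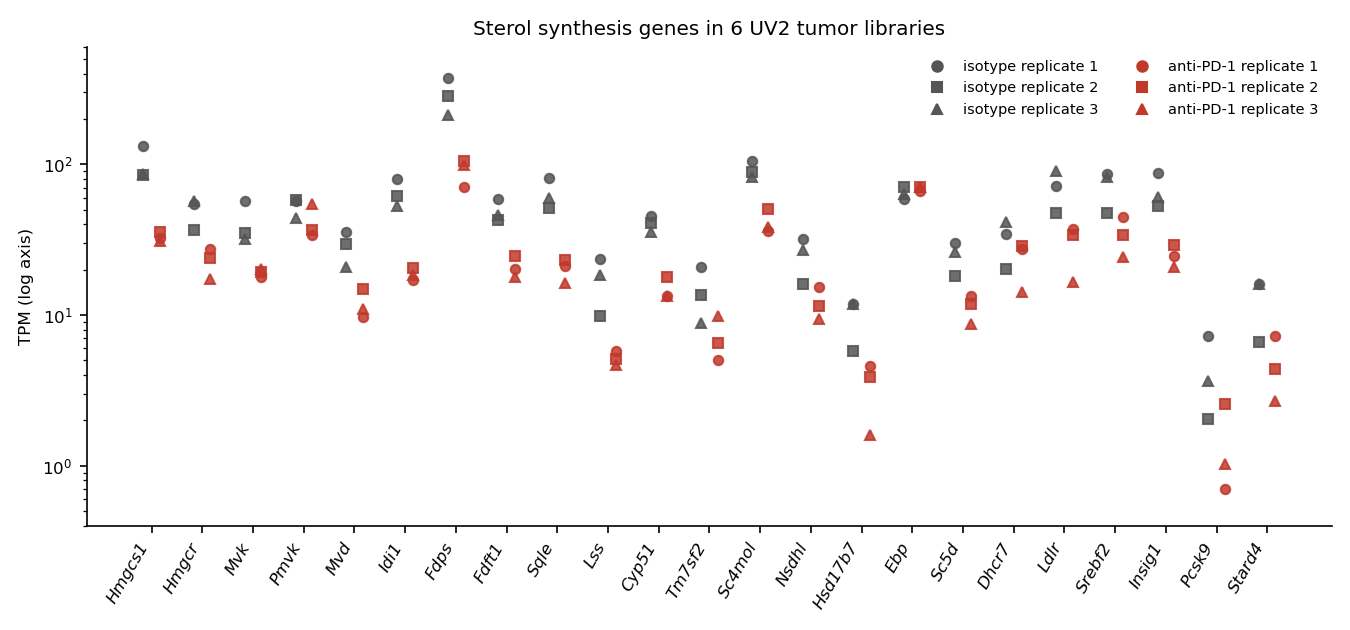
Each column is a sterol synthesis or sterol regulation gene, in pathway order, and each point a library. The vertical log axis gives TPM, isotype libraries are gray and anti-PD-1 libraries red, and 17 of the 23 genes shown had every red point below every gray point.

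The rest of the list of 24 sterol genes had values in the same direction without passing the adjusted threshold, apart from 1 gene. Of the 24, 23 had a negative log2 fold change, 20 had an unadjusted p under 0.05, where all genes gave 6.39%, and in 18 the groups did not overlap, where all genes gave 7.28%. The list median was -1.20, beside -0.11 for all genes, and stayed between -1.35 and -1.05 whichever of the 6 libraries was left out. The list was chosen with these results known, so its counts are a description and no independent support. Its summed level was 1619, 1147 and 1218 TPM under isotype and 562, 623 and 534 TPM under anti-PD-1. Hmgcs1 makes HMG-CoA at the head of the pathway and measured 133, 84.4 and 86.7 TPM under isotype against 32.6, 35.5 and 31.1 TPM (log2 fold change -1.56, adjusted p = 0.0632). Cyp51, the lanosterol demethylase, measured 45.4, 40.6 and 35.3 TPM under isotype against 13.4, 17.9 and 13.4 TPM (log2 fold change -1.39, adjusted p = 0.056). In neither gene did the groups overlap. Fdps, which makes farnesyl diphosphate, had the highest level of the list per transcript length, at 373, 285 and 212 TPM under isotype and 70.5, 105 and 99.6 TPM under anti-PD-1 (log2 fold change -1.63, adjusted p = 0.375). Fdft1, squalene synthase, measured 58.7, 42.5 and 46.3 TPM under isotype against 20.04, 24.5 and 17.9 TPM. Insig1, a sterol-sensitive brake on SREBP2, measured 88.02, 53.2 and 60.9 TPM under isotype against 24.7, 29.3 and 20.7 TPM, so the low values were not limited to enzymes. Ebp, a sterol isomerase, was the exception, at 59.01, 70.4 and 63.5 TPM under isotype and 66.8, 70.3 and 70.2 TPM under anti-PD-1 (log2 fold change 0.11).

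Promoter sequence is shown for all 5 sterol genes whose matched window held no annotated exon, to set genes with low and with overlapping values side by side. Under anti-PD-1 the groups were apart in Hmgcs1, Mvd and Sc5d, with lower treated values, and overlapped in Pmvk (log2 fold change -0.36) and Ebp (0.11). Sequences are from RefSeq (GRCm38.p6), the 250 bases before the start site, read 5′ to 3′ on the gene's strand. Capitals mark CCAAT boxes, which read ATTGG on the other strand, and 1 SRE-like match of the letters TCACNCCAC.
Hmgcs1 (chr13:119690101-119690350, plus strand): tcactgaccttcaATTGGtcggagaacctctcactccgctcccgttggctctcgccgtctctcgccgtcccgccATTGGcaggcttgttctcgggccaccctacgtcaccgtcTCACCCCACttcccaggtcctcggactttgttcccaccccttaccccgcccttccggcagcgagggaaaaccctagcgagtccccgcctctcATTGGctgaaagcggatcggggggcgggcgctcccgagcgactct
Pmvk (chr3:89454291-89454540, plus strand): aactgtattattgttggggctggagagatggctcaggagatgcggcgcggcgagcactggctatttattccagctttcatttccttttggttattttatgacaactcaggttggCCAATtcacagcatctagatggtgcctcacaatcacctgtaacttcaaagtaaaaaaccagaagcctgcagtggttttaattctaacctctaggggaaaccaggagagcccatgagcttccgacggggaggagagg
Mvd (chr8:122443423-122443672, minus strand): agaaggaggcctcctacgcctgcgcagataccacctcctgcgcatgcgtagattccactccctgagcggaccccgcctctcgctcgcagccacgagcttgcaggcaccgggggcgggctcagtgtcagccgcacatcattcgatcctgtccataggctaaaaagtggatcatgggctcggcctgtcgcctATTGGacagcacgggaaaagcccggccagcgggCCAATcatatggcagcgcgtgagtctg
Ebp (chrX:8193513-8193762, minus strand): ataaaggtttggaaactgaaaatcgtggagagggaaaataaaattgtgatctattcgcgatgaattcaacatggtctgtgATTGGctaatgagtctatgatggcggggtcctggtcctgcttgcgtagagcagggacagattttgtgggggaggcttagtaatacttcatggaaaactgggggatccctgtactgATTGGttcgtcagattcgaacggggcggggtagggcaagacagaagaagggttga
Sc5d (chr9:42264301-42264550, minus strand): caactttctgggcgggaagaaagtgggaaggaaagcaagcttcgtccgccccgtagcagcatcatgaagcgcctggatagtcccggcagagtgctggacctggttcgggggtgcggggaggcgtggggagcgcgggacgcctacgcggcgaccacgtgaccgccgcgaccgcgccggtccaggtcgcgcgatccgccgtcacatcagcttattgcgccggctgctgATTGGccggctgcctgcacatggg
Promoters of 16 of the 24 sterol genes were in the table, and 15 of them (93.8%) held CCAAT on either strand, against 34.5% of all 27025 promoters of that length. Sqle was not among the 16, and annotated exons covered all 250 bases of the Idi1 window. The SRE-like letters were in 1 of 16 (6.25%), Hmgcs1, against 1.04% of all promoters. Both motifs were chosen after the values of these genes were seen, and a match is a description of letters, not of a bound site. No matches overlapped in the 5 windows shown, and CCAAT was present in those of Pmvk and Ebp too.

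The PD-1 gene itself, Pdcd1, measured 4.06, 29 and 31 TPM under isotype and 61.3, 35.7 and 34.4 TPM under anti-PD-1. Isotype replicate 1 was far below the other 5 libraries, and the lowest treated value stood only a little above the highest isotype value. The log2 fold change was 1.35 (SE 0.65, adjusted p = 0.555) and 0.48 without isotype replicate 1. Cd274, which encodes PD-L1, measured 15.7, 30.3 and 60.2 TPM under isotype against 68.3, 31.2 and 45.6 TPM and overlapped (log2 fold change 0.57, or 0.10 without isotype replicate 1). Pdcd1lg2, which encodes PD-L2, gave 1.84, 12.5 and 6.75 TPM under isotype against 7.45, 9.25 and 11.1 TPM, and its log2 fold change of 0.61 became -0.010 without isotype replicate 1.

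All 19 T cell receptor, coreceptor and proximal signalling genes tested had a positive log2 fold change, and none passed the adjusted threshold. The list median was 0.85, and 0.35 without isotype replicate 1, so that library carried much of its size. In 6 of the 19 the groups did not overlap (all genes, 5.70%), and 1 had an unadjusted p under 0.05 (all genes, 2.77%). Cd3e, a chain of the receptor complex, measured 6.72, 27.8 and 34.3 TPM under isotype and 66.5, 39.02 and 35.1 TPM under anti-PD-1 (log2 fold change 1.21, or 0.53 without isotype replicate 1, adjusted p = 0.557 over all libraries). Cd8b1, of the CD8 coreceptor, measured 7.37, 60.9 and 46.8 TPM under isotype against 97.3, 70.6 and 65.5 TPM, and Cd8a 5.6, 39.3 and 36.9 TPM under isotype against 69.2, 43.2 and 36.04 TPM, with an overlap in Cd8a only of these 2. Cd4 measured 4.32, 4.3 and 11.6 TPM under isotype against 12.1, 11.8 and 10.1 TPM. Foxp3, the regulator of regulatory T cells, measured 1.91, 2.19 and 6.67 TPM under isotype against 5.27, 3.53 and 3.72 TPM, its highest value being in isotype replicate 3.

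Effector genes had the same sign throughout, with 16 of 16 positive, a median of 0.81 (0.34 without isotype replicate 1) and 3 at an unadjusted p under 0.05 (all genes, 2.77%). Ifng, the cytokine interferon gamma, measured 3.32, 14.8 and 12.6 TPM under isotype and 29.5, 18.8 and 30.9 TPM under anti-PD-1, and all treated libraries lay above all isotype libraries (log2 fold change 1.46, SE 0.51, adjusted p = 0.542, with a log2 fold change of 0.87 without isotype replicate 1). Gzmk, a granzyme of memory-like CD8 T cells, measured 1.39, 6.33 and 1.13 TPM under isotype against 15.2, 9.65 and 7.1 TPM (log2 fold change 1.74, or 1.499 without isotype replicate 1, adjusted p = 0.542 over all libraries). Gzmb and Prf1, which encode granzyme B and perforin of the killing granule, overlapped. Gzmb was at 30.8, 97.7 and 148 TPM under isotype against 161, 78.8 and 167 TPM, and Prf1 at 9, 20.96 and 40.7 TPM under isotype against 65.5, 23.7 and 28.7 TPM.

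Other inhibitory receptors of T cells also all had positive values, 11 of 11, with a median of 0.71 (0.34 without isotype replicate 1) and 4 at an unadjusted p under 0.05 (all genes, 2.77%). Lag3, a receptor for MHC class II, measured 10.4, 53.6 and 44.2 TPM under isotype and 84.1, 61.04 and 78.8 TPM under anti-PD-1 without overlap (log2 fold change 1.30, or 0.59 without isotype replicate 1, adjusted p = 0.542 over all libraries). Tigit measured 9.44, 27.9 and 35.1 TPM under isotype against 72.4, 38.1 and 45.02 TPM without overlap, while Ctla4 (3.78, 9.05 and 14.5 TPM under isotype against 16.98, 13.5 and 16.8 TPM) and Havcr2, which encodes TIM-3 (10.5, 21.3 and 41.6 TPM under isotype against 48.9, 25.1 and 30.2 TPM), overlapped. Of 13 costimulatory genes all were positive, with a median of 0.51 (0.12 without isotype replicate 1). Icos, a costimulatory receptor of activated T cells, measured 4.3, 8.21 and 17.1 TPM under isotype against 21.2, 16.2 and 15.7 TPM. Tcf7, a factor of memory and progenitor T cells, measured 18.97, 14.4 and 38.7 TPM under isotype against 29.6, 15.97 and 14.7 TPM with a log2 fold change of -0.19, which was -0.29 without isotype replicate 1 and turned to 0.20 without isotype replicate 3. Tox, a factor of exhausted T cells, measured 0.99, 7.74 and 4.41 TPM under isotype against 12.9, 4.97 and 4.45 TPM.

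**Figure D2:**
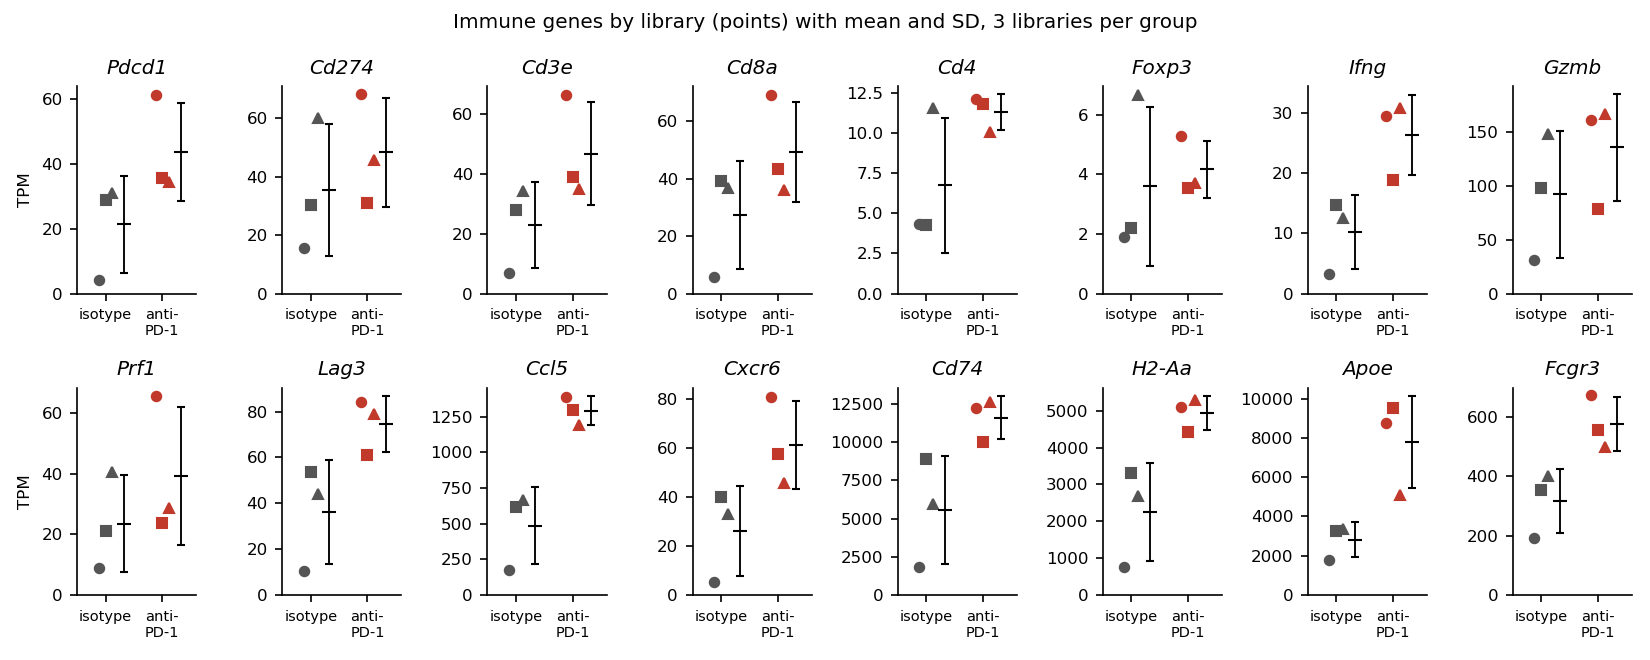
Each panel is 1 immune gene and each point a library, with TPM on a linear vertical axis from 0 and the mean and SD of 3 libraries beside the points. Circles, squares and triangles are replicates 1, 2 and 3, and isotype replicate 1, the gray circle, is the lowest of the 6 libraries in most panels, as in Cd3e at 6.72 TPM.

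Chemokines and receptors that draw T cells were positive in 10 of 12, with a median of 0.82 (0.45 without isotype replicate 1), and 6 of the 12 did not overlap (all genes, 5.70%). Ccl5, made by activated T and NK cells among others, measured 175, 616 and 666 TPM under isotype and 1390.0, 1297 and 1189 TPM under anti-PD-1 (log2 fold change 1.63, SE 0.61, adjusted p = 0.542, with a log2 fold change of 1.01 without isotype replicate 1). The lowest treated library thus stood well above the highest isotype library. Cxcr6, a receptor of tissue-resident T cells, measured 5.31, 39.9 and 33.1 TPM under isotype against 80.9, 57.5 and 45.7 TPM, and Cxcl16, its ligand, 88.3, 198 and 214 TPM under isotype against 290.0, 241 and 256 TPM, neither with an overlap. The interferon-induced Cxcl9 (141, 233 and 309.5 TPM under isotype against 319, 160.1 and 545 TPM) and Cxcl10 (471, 857 and 672 TPM under isotype against 705, 263 and 901 TPM) overlapped, and anti-PD-1 replicate 2 was the lowest treated library in both.

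MHC class II genes, which present antigen to CD4 T cells, were positive in 12 of 13, with a median of 0.81 (0.40 without isotype replicate 1), and none passed the adjusted threshold. Cd74, the invariant chain, measured 1858, 8881 and 5977 TPM under isotype and 12232, 9997 and 12617 TPM under anti-PD-1 (log2 fold change 1.32, or 0.67 without isotype replicate 1, adjusted p = 0.542 over all libraries). H2-Aa measured 763, 3321 and 2689.9 TPM under isotype against 5113, 4409 and 5281 TPM, and H2-Ab1 638, 2987 and 2181 TPM under isotype against 4299, 3668 and 4766 TPM. All treated libraries lay above all isotype libraries in the 3 genes. MHC class I genes differed less, with 19 of 24 positive and a median of 0.18 that became -0.12 without isotype replicate 1. B2m, their shared light chain, measured 5998, 11877 and 10697 TPM under isotype against 9856, 7983 and 13355 TPM and overlapped. H2 genes have near-identical copies, so their read assignment is uncertain.

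Macrophage and monocyte genes were positive in 22 of 26, with a median of 0.73 (0.45 without isotype replicate 1), and 11 had an unadjusted p under 0.05, where all genes gave 2.77%. None passed the adjusted threshold. Their summed level was 7827, 15579 and 13208 TPM under isotype and 23191, 21589 and 21937 TPM under anti-PD-1, with no overlap. Apoe, a lipid carrier, made up a large part of that sum, and without it the groups overlapped, at 6022, 12309 and 9832 TPM under isotype against 14423, 12082 and 16843 TPM. Fcgr3, an activating Fc receptor, measured 193, 354 and 399 TPM under isotype against 674, 554 and 498 TPM (log2 fold change 0.92, or 0.60 without isotype replicate 1, adjusted p = 0.542 over all libraries). Csf1r, the receptor that macrophages need to survive (203, 168 and 306 TPM under isotype against 433, 313 and 233 TPM), and Emr1, which encodes F4/80 (165, 180.1 and 271 TPM under isotype against 348, 192 and 221 TPM), overlapped. Csf1, the ligand of Csf1r, measured 109.7, 101 and 113 TPM under isotype and 97.5, 58.9 and 70.3 TPM under anti-PD-1, with every treated library lower (log2 fold change -0.54, or -0.52 without isotype replicate 1). Complement genes were positive in 13 of 14 (median 0.75, 0.44 without isotype replicate 1). Serping1, the C1 inhibitor, measured 94.7, 137 and 285 TPM under isotype against 443, 446 and 267 TPM. Cfp, properdin, measured 122, 138 and 158 TPM under isotype against 294, 331 and 237 TPM without overlap. Arg1, a myeloid arginase, ranged widely within both groups, at 13.5, 173 and 38.1 TPM under isotype against 72.6, 220.0 and 28.7 TPM.

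Over all 6 libraries the 2 lists of interferon-induced genes had medians of opposite sign, and no gene in them passed the adjusted threshold. The 30 genes of the interferon gamma list had a median of 0.22, which became -0.10 without isotype replicate 1, with 23 positive. Irf1, an early target, measured 158, 280.3 and 287 TPM under isotype against 370.2, 239 and 402 TPM, and Irf8, of myeloid cells, 42.1, 70.5 and 81.9 TPM under isotype against 119.8, 79.3 and 119 TPM. The 35 genes of the type I interferon list had a median of -0.61 (-0.77 without isotype replicate 1), and 34 were negative, 14 with an unadjusted p under 0.05 (all genes, 6.39%), none past the adjusted threshold. Mx2, an antiviral GTPase, measured 10.3, 14.2 and 12.4 TPM under isotype and 4.95, 3.94 and 8.52 TPM under anti-PD-1, without overlap (log2 fold change -1.01, or -1.13 without isotype replicate 1, adjusted p = 0.542 over all libraries). Isg15, a ubiquitin-like antiviral modifier, measured 649, 1183 and 613 TPM under isotype against 296, 217 and 734 TPM, with anti-PD-1 replicate 3 inside the isotype range. Summed over the list, that library stood at 6903 TPM and the other treated libraries at 3707 and 2592 TPM, where the isotype libraries gave 4801, 8334 and 6288 TPM. Without anti-PD-1 replicate 2 the list median was -0.27.

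The Isg15 promoter is shown because this gene stands for the type I interferon list and carries its element 3 times. The source and window are as above, with capitals marking the ISRE core, here the letters GAAA and again GAAA after 2 free bases. The 3 matches overlap.
Isg15 (chr4:156200819-156201068, minus strand): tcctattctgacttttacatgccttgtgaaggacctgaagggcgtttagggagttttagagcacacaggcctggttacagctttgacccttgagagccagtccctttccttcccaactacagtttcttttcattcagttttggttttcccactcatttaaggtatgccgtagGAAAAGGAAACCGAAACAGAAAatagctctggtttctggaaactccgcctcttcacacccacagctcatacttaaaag
These letters, on either strand, were in 12 of 25 matched promoters of the type I list (48%) and 12 of 18 of the interferon gamma list (66.7%), against 3.04% of all promoters. The GAS core letters TTCNNNGAA were in 11 of those 18 (61.1%), against 7.18% of all promoters. Both lists thus share ISRE letters, while their medians differed in sign over all 6 libraries, though not without isotype replicate 1.

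**Figure D3:**
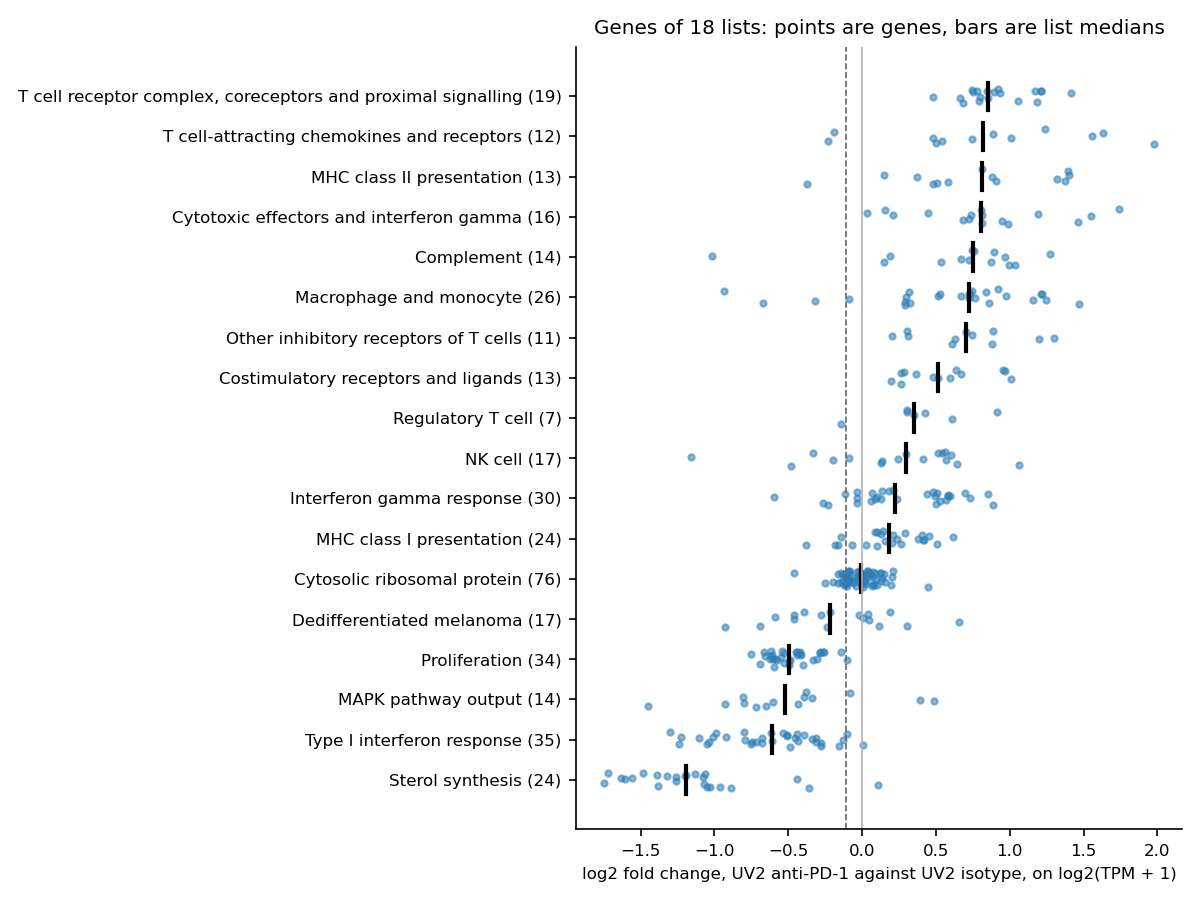
Each row is a gene list with its number of tested genes, each point a gene and each black bar the list median, with the log2 fold change of UV2 anti-PD-1 against isotype on the horizontal axis. The dashed line is the median of all genes (-0.11), the sterol list has the lowest median (-1.20) and the T cell list the highest shown (0.85).

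Proliferation genes were negative in 34 of 34 (all genes, 62.3%), with a median of -0.49. Of them 9 had an unadjusted p under 0.05 (all genes, 6.39%), 13 did not overlap (all genes, 7.28%), and none passed the adjusted threshold. Mcm5 and Mcm7 encode parts of the replicative helicase. Mcm5 measured 84.8, 66.7 and 86.9 TPM under isotype and 60.1, 44.2 and 52.5 TPM under anti-PD-1, and Mcm7 103, 79.1 and 102 TPM under isotype against 73.6, 57.7 and 61.9 TPM. Mki67, the Ki-67 antigen, measured 34.8, 20.4 and 47.9 TPM under isotype against 26.8, 18.1 and 16.9 TPM, with isotype replicate 2 inside the treated range. Output genes of the MAPK pathway were negative in 12 of 14 (all genes, 62.3%), with a median of -0.52. Only 1 had a lower value with an unadjusted p under 0.05 (all genes, 6.39%), 3 did not overlap (all genes, 7.28%), and none passed the adjusted threshold. Spry1, a feedback inhibitor named for its small p within the list, measured 102, 99.3 and 71.3 TPM under isotype against 37.95, 12.95 and 66.8 TPM. Pax3 and Foxd3, factors of the neural crest and early melanocytes, measured 7.83, 4.47 and 6.57 TPM under isotype against 3, 1.87 and 2.03 TPM, and 2.57, 2.22 and 1.57 TPM under isotype against 1.1, 0.85 and 0.82 TPM, neither with an overlap. Pax3 was the only negative gene of 8 tested in the melanocyte lineage list. The other 7 were positive (all genes, 37.7%), and the list median was 0.41. Snai2, a factor of mesenchymal transition, measured 46.1, 22.9 and 21.7 TPM under isotype against 14.3, 12.9 and 16.6 TPM. Its list, of dedifferentiated melanoma, was mixed, with 10 of 17 genes negative (all genes, 62.3%), 7 positive and a median of -0.21. Of the 17, 2 had a lower value with an unadjusted p under 0.05 (all genes, 6.39%), and none passed the adjusted threshold. Xlr and Klhl4, chosen as marks of the UV2 line with results of the isotype libraries known, are given without a test, at 52.5, 47.99 and 33.2 TPM under isotype against 23.5, 27.97 and 29.6 TPM, and 27.7, 12.2 and 19.8 TPM under isotype against 10.2, 3.71 and 7.26 TPM. The part that the share of tumor cells had in these values was not tested.

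Transcripts of neighboring tissues differed between single libraries. Acta1, skeletal muscle actin, measured 0.27, 0 and 219 TPM under isotype and 0.36, 311 and 229 TPM under anti-PD-1, so it was high in 1 isotype and 2 treated libraries. Krt14, of basal keratinocytes, was at 69.5 TPM in anti-PD-1 replicate 3 and did not pass 0.16 TPM elsewhere. Summed adipocyte markers gave 78.9, 189 and 175 TPM under isotype and 1078, 554 and 254 TPM under anti-PD-1, the 12 tested all being positive and 8 without overlap (all genes, 5.70%). Summed erythrocyte markers gave 126, 179 and 145 TPM under isotype against 1963, 432 and 75.6 TPM, highest in anti-PD-1 replicate 1. Beside these, the 24 sterol genes were below isotype in each treated library in sum, and without the 3 libraries with muscle transcripts their median was -1.27, with 22 of 24 negative. The treated library kept there, anti-PD-1 replicate 1, had the highest adipocyte and erythrocyte sums. That setting was added after the data were seen and leaves 1 anti-PD-1 library, assumed to vary like the other groups, against 2 isotype libraries. Neither Idi1 (adjusted p = 0.389) nor Sqle (adjusted p = 0.403) was called in it.

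**Figure D4:**
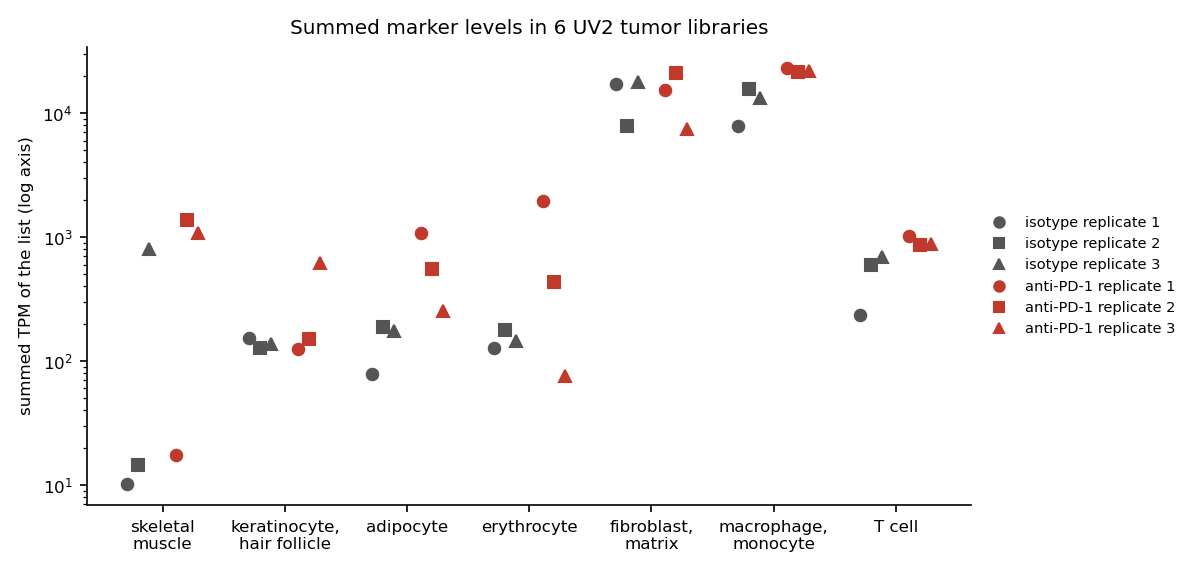
Each column is a marker list and each point a library, with the summed TPM of the list on a log axis. Muscle markers stand at 10.1 to 17.5 TPM in 3 libraries and at 799.5 to 1366 TPM in the other 3, and T cell markers are lowest in isotype replicate 1 (235 TPM).

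The 15 genes named on the higher side were taken by smallest p, since none passed the adjusted threshold. Beside the genes described next, they were Fcgr3, Sncg, Rpl39l, Hsd17b11, Tmem159, Dtnbp1, Aph1c, Ppt2, Id2 and Bst1. Ifitm1, an interferon-inducible membrane protein, measured 11.5, 17.2 and 108 TPM under isotype and 163, 203 and 133 TPM under anti-PD-1 (log2 fold change 2.50, or 1.89 without isotype replicate 1, adjusted p = 0.542 over all libraries). Pla2g7, a secreted phospholipase of macrophages, measured 123, 124 and 255 TPM under isotype against 364, 399 and 278 TPM, and Lyz1, a lysozyme, 238, 245 and 277 TPM under isotype against 482, 613 and 503 TPM. Ninj1, which takes part in membrane rupture of dying cells, measured 139, 135 and 164 TPM under isotype against 298, 351 and 269 TPM (log2 fold change 1.06, or 1.02 without isotype replicate 1, adjusted p = 0.479 over all libraries). Groups did not overlap in these 4, which a choice by smallest p favors. Clec4d, a C-type lectin of myeloid cells, measured 5.05, 6.73 and 26.9 TPM under isotype against 48.8, 87.5 and 20.3 TPM, with isotype replicate 3 above anti-PD-1 replicate 3. On the other side, 13 of the 15 genes named on the lower side belong to sterol metabolism, which the sterol list already describes for all but Acat2. Acat2, outside that list, measured 60.02, 28 and 33.35 TPM under isotype against 13.9, 16.6 and 13.1 TPM. The genes of the 15 outside sterol metabolism were Usp11, a deubiquitinase (27.5, 15.3 and 16.6 TPM under isotype against 10.1, 7.42 and 9.24 TPM), and Matn2, a matrix protein (126, 73.02 and 104 TPM under isotype against 59, 50.7 and 39.8 TPM).

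The same antibody comparison in parental tumors was set beside these values to see where UV2 tumors differed. No gene of 13592 (0%) passed an adjusted p under 0.05 for the difference between the lines (limma interaction, lowest adjusted p = 0.80). In that test 404 (2.97%) had an unadjusted p under 0.05. The antibody log2 fold change was higher in UV2 than in parental tumors for 0.670% and lower for 2.30%. Sqle had the lowest unadjusted p, with a log2 difference of -1.54 (95% interval -2.20 to -0.88, adjusted p = 0.800). Its parental log2 fold change was -0.06. Idi1, Hmgcs1 and Cyp51 had differences of -1.44, -1.56 and -1.28. The sterol list had a parental median of -0.00026, beside -1.20 in UV2 tumors, and the type I interferon list 0.05 beside -0.61. The interferon gamma list had a parental median of 0.80 with 30 of 30 positive, beside 0.22 with 23 of 30 in UV2 tumors, and the T cell list 0.19 beside 0.85. Within parental tumors no gene (0%) passed the adjusted threshold between the antibodies, and 83 (0.611%) had an unadjusted p under 0.05, 0.390% higher and 0.221% lower under anti-PD-1. The effect of anti-PD-1 was therefore not shown to differ between the lines for any 1 gene.

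**Figure D5:**
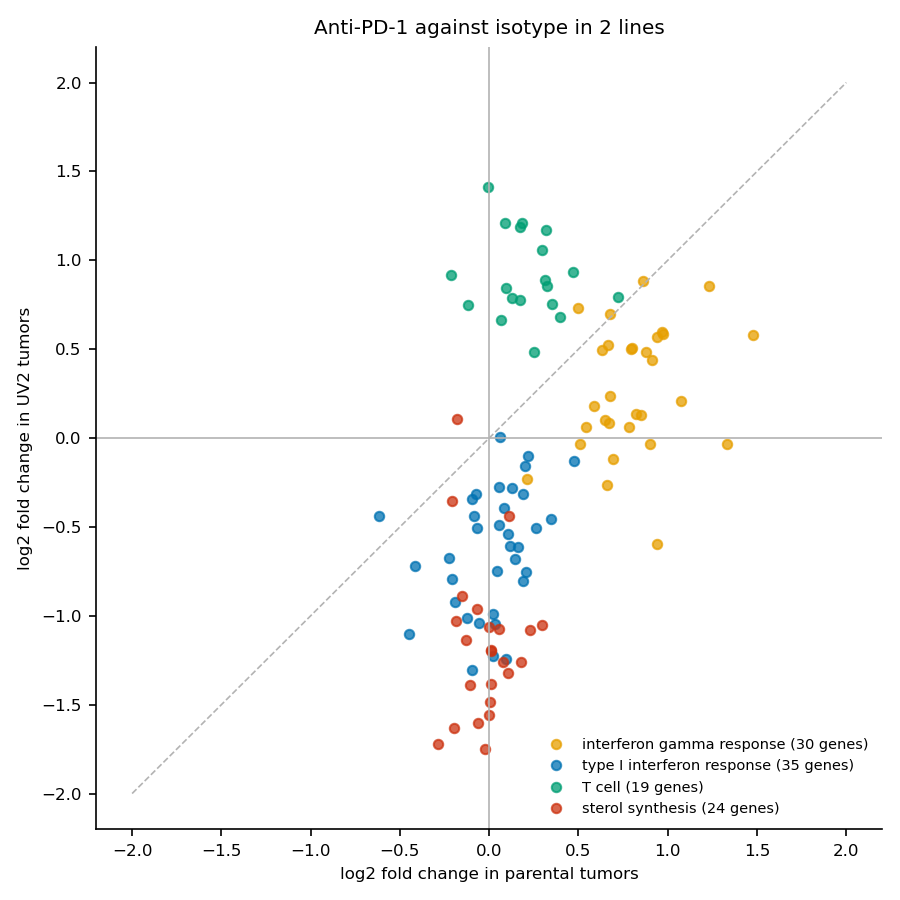
Each point is a gene of 4 lists, placed by its log2 fold change for anti-PD-1 against isotype in parental tumors (horizontal) and UV2 tumors (vertical), with equal values along the dashed line. Sterol genes lie near 0 in parental tumors (median -0.00026) and low in UV2 tumors (median -1.20), a difference that no single gene's test passed.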

How the data were processed

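Gene levels were read from bulk tumor RNA of 15 libraries in 5 groups of 3, of which 6 form this comparison. The authors deposited TPM values for 23420 gene symbols, made with Bowtie2 and RSEM on mm10/GRCm38 per the submitters' processing notes. Tool versions are not given in the sources used here. TPM columns each sum to 1000000, so read depth is unknown and no counting interval is given, and the table's symbols include 27 turned into dates.

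Genes with at least 1 TPM in at least 3 libraries were kept (13592). limma 3.58.1 in R 4.3.3 was fitted to log2(TPM + 1), pseudocount 1, over all 5 groups with 10 residual degrees of freedom and trended, robust variance. A gene was called at an adjusted p under 0.05, with the Benjamini-Hochberg adjustment over the 13592 genes. The pipeline was tested on simulated data. Intervals are at 95%. Named genes were the 15 of highest and 15 of lowest fold change among called genes with a mean of at least 5 TPM, filled by smallest p, with a fixed set and up to 4 genes per list. The groups, members and all 47 gene lists were chosen with earlier results of these data known. Gene positions are from GENCODE M21, which matched 93.9% of genes tested. Promoters are from RefSeq. Values of 2 named genes are not reported here. Alternatives varied the pseudocount, filter, scaling, libraries fitted, replicate block, library weights and variance model. They also left out in turn each library of the groups compared, which for the UV2 comparison were its 6 libraries. No triple therapy library was left out in turn.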

Additional observations from a re-analysis of the deposited data

How the results depend on the processing

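The count of genes that differed between the antibodies in UV2 tumors (2, both lower) was 3 with a pseudocount of 0.1, without a filter (1 of them higher, Ppy), and with a minimum of 5 TPM. It was 1 (lower) under median-of-ratios scaling, and 0 (0 lower) under quantile normalization, in the fit of only the 2 groups, and without the trended and robust variance. Library weights gave 2911, of them 739 higher and 2172 lower, with 1303 genes for the difference between lines and 412 in parental tumors. That weight fit stopped before convergence and gave 1 library of another treatment a weight of 73.8, so its counts are not relied on. Leaving out 1 UV2 library gave 0 to 3 genes, 0 to 2 higher (Pla2g7 and Ppt2, without isotype replicate 3) and 0 to 1 lower. Without the 3 libraries with muscle transcripts, a setting chosen after seeing the data, 1 gene (1 lower, H2-Q6) was called, with the lone anti-PD-1 library assumed to vary like the other groups. Replicate numbers did not pair the libraries (correlations of same-numbered deviations 0.20, -0.15 and -0.33), and the fit with a replicate block called 3 genes in UV2 tumors.

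Of 153 named genes, 143 kept their sign under every planned setting. The log2 fold change turned to 0.27 for Cd79a with library weights, and to 0.033 for Ncr1 under median-of-ratios scaling. With 1 UV2 library left out at a time, genes whose sign turned ranged from -0.073 to 1.72 for Arg1, -0.15 to 0.34 for B2m, -0.52 to 0.40 for Cd79a, -0.59 to 0.30 for Cxcl10, -0.14 to 2.93 for Krt14, -0.067 to 2.67 for Krt15, -0.45 to 0.45 for Ncr1, -0.010 to 1.11 for Pdcd1lg2, -0.33 to 1.25 for S100a8 and -0.50 to 0.20 for Tcf7. The cause was not tested. With 3 libraries a group and no read counts, the precision of low genes is unknown.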

Other observations

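Lipid genes outside the sterol list were read after its values had been seen, so they are a description with no test. Of 10 fatty acid synthesis genes, 10 had a negative log2 fold change in UV2 tumors (all genes, 62.3%). Their median was -0.92, beside 0.15 in parental tumors. Fads2, a fatty acid desaturase, measured 174, 58.4 and 130.3 TPM under isotype and 52.5, 26.98 and 16.98 TPM under anti-PD-1. Scd2, a desaturase that makes monounsaturated fat, measured 449, 214 and 356 TPM under isotype against 164, 124 and 97.1 TPM. The groups did not overlap in Fads2 and Scd2, but they did in Acly, Acaca, Fasn, Elovl6 and Scd1. Scd1 measured 120, 49.3 and 94.4 TPM under isotype against 134.7, 46.02 and 29.9 TPM, with anti-PD-1 replicate 1 highest. LXR is the receptor that senses excess sterol. Of 11 genes of LXR and its targets, 9 were positive with a median of 0.98, beside 0.31 in parental tumors. Nr1h3 and Nr1h2, which encode LXR itself, were among the 11. Srebf1 and Lpcat3 were negative, and Srebf1 measured 105, 74.5 and 84.7 TPM under isotype against 65.3, 42.8 and 47.7 TPM, without overlap. Isotype replicate 1, lowest in several of these genes, was not left out for this median. Apoe, a carrier of cholesterol that macrophages make in quantity, measured 1805, 3269.9 and 3376 TPM under isotype and 8768, 9507 and 5094 TPM under anti-PD-1, without overlap. Abcg1, which exports cholesterol from cells, measured 17.2, 30.7 and 58.1 TPM under isotype against 101, 50.2 and 59.1 TPM. Of 9 genes of sterol uptake and handling, 6 were negative, with a median of -0.12. Apoe is also a member of the macrophage list. Without Apoe that list summed to 6022, 12309 and 9832 TPM under isotype and 14423, 12082 and 16843 TPM under anti-PD-1, and its part in the LXR values was not tested.

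Mast cell protease genes were highest in 1 library. Mcpt4 measured 88.1, 161 and 194 TPM under isotype and 207, 153 and 443 TPM under anti-PD-1, and Tpsb2 106, 208 and 247 TPM under isotype against 295, 199 and 499.7 TPM, with anti-PD-1 replicate 3 highest in both.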
